A study of Mus musculus with 6 samples.

Results

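The 10 genes described here encode the cap-binding complex eIF4F, paralogs of its subunits and the 4E-binding proteins that inhibit it. They were taken by symbol, whatever their values: Eif4ebp1, Eif4ebp2, Eif4ebp3, Eif4e, Eif4e2, Eif4e3, Eif4g1, Eif4g3, Eif4a1 and Eif4a2. All 10 were found among the 24421 gene symbols of the data, and all 10 passed the filter on low values. RNA was sequenced from mouse prostate in 2 groups, 4 castrated samples and 2 intact samples. Both groups carried the same genotype, PB-Cre4 with 1 gene floxed on both alleles. Cre is driven by a probasin promoter and acts in prostate epithelium, while stroma and blood cells keep the floxed gene. Castration removes the main source of androgens, and the series' title puts the question on translation in advanced prostate cancer. The labels give no age and no time since castration, and do not say that each sample is another animal. The p-values below therefore cover the spread between the 6 samples, part of which may be technical.

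Most messenger RNAs are translated after eIF4E binds the cap at their 5′ end. eIF4E sits on the scaffold eIF4G together with the RNA helicase eIF4A, and this complex brings the small ribosomal subunit to the message. The 4E-binding proteins (4E-BPs) hold eIF4E through the same kind of short site that eIF4G uses, so that eIF4E is bound by one or the other. When mTORC1 phosphorylates a 4E-BP it lets go of eIF4E. RNA was measured here, not protein, phosphorylation or translation.

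The competing sites are shown because they are what the inhibitors and the scaffolds share. Eif4ebp3 has such a site too, starting at codon 40 of 101, and its sequence is not shown here. Each line gives the codons of the 4E-binding site in the GENCODE coding sequence, with the codons of the tyrosine, the leucine and the hydrophobic residue after it in capitals.
Eif4ebp1: TATgaccggaaatttCTGATG
Eif4ebp2: TATgaccgaaagtttCTGTTG
Eif4g1: TATgacagagaattcCTGCTG
Eif4g3: TATgaccgggagttcCTACTG
These 21-base sites, all in coding exons, lie at chr8:27273337-27273357 (plus strand), chr10:61435069-61435089 (minus strand), chr16:20681221-20681241 (plus strand) and chr4:138156650-138156670 (plus strand) of GRCm38, in the order of the lines. Of 21 bases, Eif4ebp2 shared 18 with Eif4ebp1, and each scaffold gene shared 16. The site starts at codon 53 of 117 in Eif4ebp1 and at codon 54 of 120 in Eif4ebp2, against codon 616 of 1600 in Eif4g1 and codon 637 of 1578 in Eif4g3.

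The samples held 43679297 to 59170793 reads assigned to genes. Deposited CPM, reads scaled to a common total, were rescaled by median-of-ratios factors of 0.981 to 1.05 (rescaled CPM). Castration showed in Fkbp5, an androgen-induced gene, which was at 29.7 to 34.1 rescaled CPM in castrated samples against 251 and 254 in intact samples (limma adjusted p = 0.000141). Pbsn, the gene of the promoter that drives Cre, was at 0.209 to 2.47 in castrated samples and at 2.99 and 7.45 in intact samples (adjusted p = 0.276). Luminal epithelial markers (8 of 8 detected, none at 0) summed to 7328 to 11028 in castrated samples and to 10266 and 10436 in intact samples. Of these 8, 1 was lower with castration at a limma adjusted p under 0.05. The seminal vesicle genes Svs3a, Svs4 and Svs6 had no read. Log2 values correlated at 0.941 to 0.988 between castrated samples and at 0.979 between the intact ones, against 0.941 to 0.952 across groups. In bulk tissue, fewer cells of a type and less RNA per cell cannot be told apart.

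No gene of the complex or of its inhibitors passed the test for a difference between castrated and intact prostates. In limma on log2(rescaled CPM + 0.5), with Benjamini-Hochberg adjustment over the 13898 genes tested and a threshold of 0.05, 0 of 10 were called, where 1.97% of the 13898 were (0.698% called higher with castration and 1.27% lower). In edgeR and DESeq2 on recovered reads 0 and 0 of 10 were called, where 1.46% and 9.31% of all genes were. At an unadjusted p under 0.05 there were 2 of 10 in limma (Eif4e3 and Eif4a2), 2 in edgeR and 2 in DESeq2, where 15.9% of all genes had one in limma (7.84% higher and 8.06% lower), 15.9% in edgeR and 18.5% in DESeq2. The same pair were the members whose groups did not overlap, both higher in every castrated sample. Over all genes, 26.6% had groups that did not overlap (13.4% higher and 13.2% lower), so these shares lie near the background. The members' log2 fold changes had a median of 0.01 and ran from -0.48 to 0.37, with 6 positive and 4 negative, and the median over all tested genes was 0.00.

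**Figure D1:**
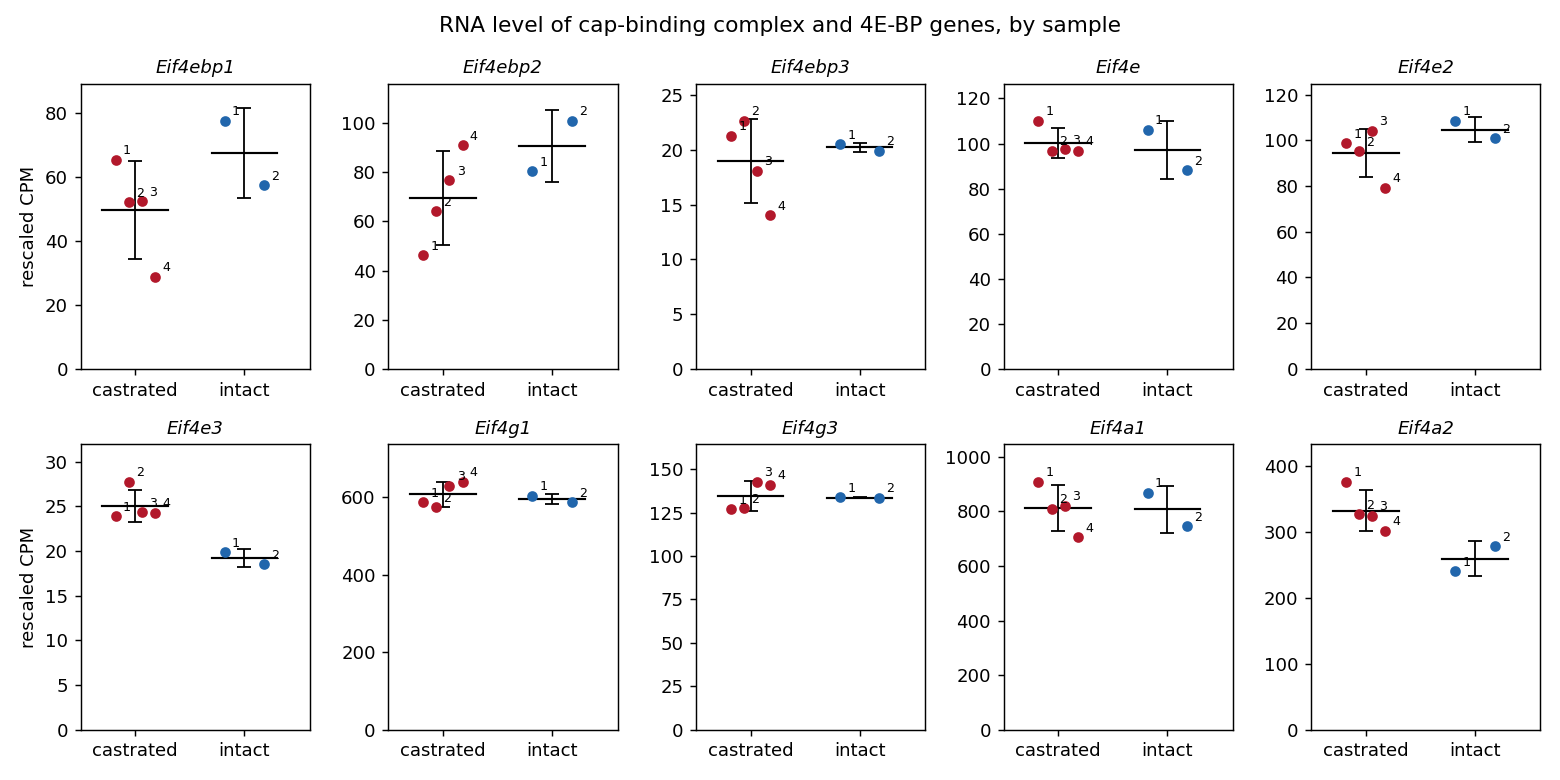
Rescaled CPM (y axis, from 0) of each gene in the castrated (red, n = 4) and intact (blue, n = 2) samples, numbered by replicate; lines and bars give the mean and SD. The 4 castrated samples lie above both intact samples for Eif4e3 and Eif4a2 only, and Eif4ebp1 and Eif4ebp2 spread widely among castrated samples.

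Levels per kilobase of exon set the genes in order, from the helicase down. The length counts the exons of all basic coding transcripts of a gene together. Which of these transcripts the samples use was not determined, and the order depends on it. Eif4a1 averaged 456 rescaled CPM per kilobase over the 6 samples, above every other member in each sample. Eif4g1 (95.04 to 106 by sample) and Eif4a2 (75.3 to 118) came next and changed places between samples, Eif4g1 being the higher in 4 of 6. Eif4ebp1 (27.9) and Eif4ebp3 (26.1) followed, Eif4ebp1 being the higher in 4 of 6. The place of Eif4ebp3 is uncertain, as a same-strand gene covers 67.3% of its exon bases. Eif4e averaged 19.4 and lay below Eif4ebp3 in all 6 samples and below Eif4ebp1 in all but castrated sample 4, where Eif4ebp1 was at 14.5 and Eif4e at 18.9. Eif4g3 (13.3), Eif4ebp2 (13.2) and Eif4e2 (13.1) crossed each other between samples and could not be ordered, and Eif4ebp2 reached the level of Eif4e in intact sample 2, at 17.4 against 17.2. Eif4e3 was lowest at 9.19, below Eif4e2 in all 6 samples.

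Eif4ebp1, which encodes 4E-BP1, the best studied of the inhibitors (chromosome 8, 27260329 to 27276674), had 65.5, 52.2, 52.4 and 28.9 rescaled CPM in castrated samples 1 to 4, against 77.6 and 57.5 in intact samples 1 and 2. Castrated sample 1 lay between both intact samples and the other 3 castrated samples below them, so the groups overlapped. The mean was 49.7 ± 15.2 in castrated samples (SD, n = 4) and 67.5 ± 14.2 in intact samples (SD, n = 2). The log2 fold change of -0.48 had a standard error of 0.32 and a 95% interval of -1.24 to 0.28 (limma adjusted p = 0.546), which allows a level in castrated samples of 0.422 to 1.22 times that in intact samples. The value depended on single libraries, at -0.24 without castrated sample 4, -0.27 without intact sample 1 and -0.70 without intact sample 2. Between 1793 and 3452 reads a sample lay behind these values.

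Eif4ebp2 encodes the 4E-BP known chiefly from the brain (chromosome 10, 61428491 to 61452661). It had 46.2, 64.1, 76.7 and 90.9 rescaled CPM in castrated samples 1 to 4, against 80.3 and 101 in intact samples 1 and 2. The first 3 castrated samples lay below both intact samples and castrated sample 4 between them. The log2 difference of -0.41 had a standard error of 0.27 and a 95% interval of -1.05 to 0.22 (limma adjusted p = 0.528). It was -0.24 without castrated sample 1 and -0.25 without intact sample 2.

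Castrated samples 1 and 4 stood at opposite ends for these inhibitors, while castrated sample 3 lay above castrated sample 2 in both, only slightly for Eif4ebp1. Castrated sample 1 had the most Eif4ebp1 and the least Eif4ebp2, and castrated sample 4 the least Eif4ebp1 and the most Eif4ebp2. Per kilobase of exon, the ratio of Eif4ebp1 to Eif4ebp2 was thus 4.10, 2.36, 1.98 and 0.919 in castrated samples 1 to 4, and 2.80 and 1.65 in intact samples 1 and 2. Among castrated samples the SD of the log2 value was 0.50 for Eif4ebp1 and 0.41 for Eif4ebp2, larger than in 86.7% and 81.2% of the 13898 genes tested, whereas that of Eif4g1, at 0.08, was larger than in 9.87%. Marker sums also varied among castrated samples. Luminal markers summed to 11028, 8651, 9710.1 and 7328 in castrated samples 1 to 4, against 10436 and 10266 in intact samples 1 and 2. Fibroblast markers (6 of 6 detected) summed to 958, 755, 1316 and 1769 in castrated samples, against 1635 and 1775 in intact samples. Basal markers (7 of 7 detected, 1 called lower) summed to 809, 3754, 1024 and 2996 in castrated samples, against 3709.7 and 4139.9 in intact samples. Castrated samples 2 and 3, alike in Eif4ebp1, differed in their basal and fibroblast sums. Luminal sums, like Eif4ebp1, were highest in castrated sample 1 and lowest in castrated sample 4. Castrated samples 2 and 3 had luminal sums of 8651 and 9710.1, with Eif4ebp1 at 52.2 and 52.4 rescaled CPM. The part of tissue makeup in the levels of either gene was not tested.

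**Figure D2:**
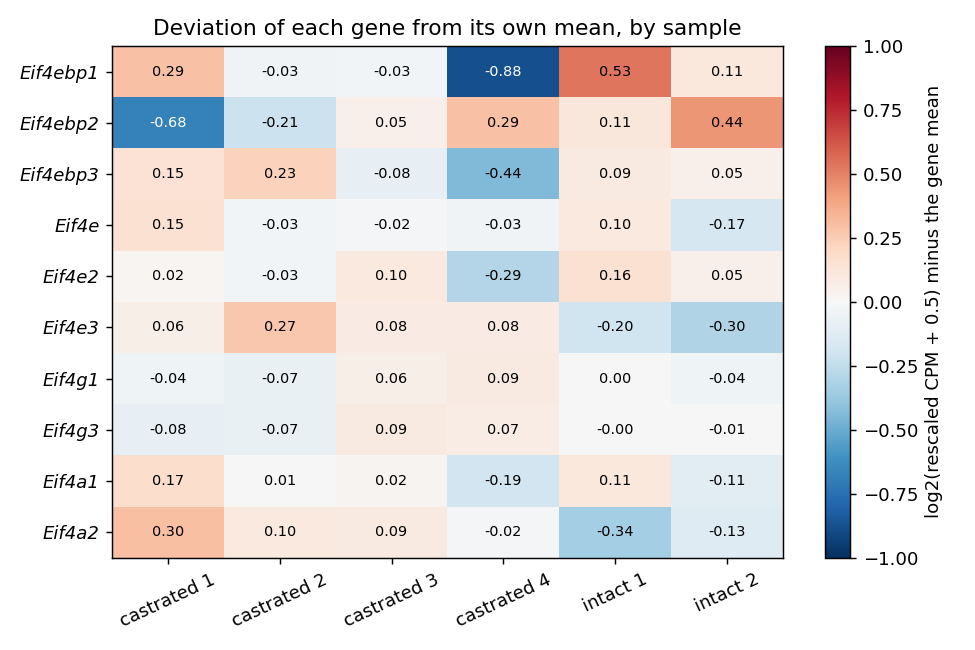
Log2(rescaled CPM + 0.5) of each gene (rows) minus its mean over the 6 samples, for castrated samples 1 to 4 and intact samples 1 and 2 (columns). Eif4ebp1 stands at -0.88 and Eif4ebp2 at 0.29 in castrated sample 4, against 0.29 and -0.68 in castrated sample 1.

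Eif4ebp3, the third inhibitor (chromosome 18, 36664060 to 36665917), had 21.3, 22.7, 18.1 and 14.1 rescaled CPM in castrated samples and 20.5 and 19.95 in intact samples. Its groups overlapped, castrated sample 4 being the lowest, and the log2 fold change was -0.11 with a 95% interval of -0.59 to 0.38 (limma adjusted p = 0.862). Without castrated sample 4 it was 0.02. A same-strand gene, AC115631.1, covers 67.3% of its exon bases in GENCODE, so reads of this gene cannot be assigned with certainty.

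The 3 inhibitors together were set against eIF4E on the per-kilobase scale, as a description with no test. Their sum was 3.23, 3.58, 3.36 and 2.60 times the level of Eif4e in castrated samples 1 to 4, against 3.88 and 4.25 times in intact samples 1 and 2. All 4 castrated samples thus lay below both intact samples. For single genes, the groups did not overlap in 26.6% of all genes tested. The sum includes Eif4ebp3, whose reads cannot be assigned with certainty.

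Eif4e, which encodes the main cap-binding protein (chromosome 3, 138526179 to 138559696), had 110.1, 96.9, 97.4 and 96.8 rescaled CPM in castrated samples, against 106 and 88.2 in intact samples. Castrated samples 2 to 4 lay at 96.8 to 97.4, all between both intact samples. The log2 fold change was 0.05 with a 95% interval of -0.22 to 0.32 (limma adjusted p = 0.890), a range of 0.860 to 1.25 times the intact level, and it was -0.09 without intact sample 2. Eif4e2, a paralog that binds the cap and takes part in repression (chromosome 1, 87213914 to 87240488), had 98.8, 95.3, 104 and 79.4 in castrated samples, against 109 and 101 in intact samples. The log2 fold change of -0.15, with an interval of -0.46 to 0.15 (adjusted p = 0.631), was -0.08 without castrated sample 4.

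Eif4e3 encodes an atypical cap-binding paralog (chromosome 6, 99625135 to 99666771). It had 23.9, 27.8, 24.3 and 24.3 rescaled CPM in castrated samples, against 19.9 and 18.5 in intact samples. Every castrated sample lay above both intact samples, and the mean was 25.1 ± 1.81 in castrated samples (SD, n = 4) and 19.2 ± 0.967 in intact samples (SD, n = 2). The log2 fold change of 0.37 had a standard error of 0.12 and a 95% interval of 0.10 to 0.65. Its unadjusted p was 0.0160 in limma, 0.0152 in edgeR and 0.00508 in DESeq2. After adjustment these were 0.179 in limma, 0.176 in edgeR and 0.0533 in DESeq2. The log2 fold change stayed between 0.32 and 0.42 with any 1 sample left out. A same-strand gene, Gm20696, covers 14.8% of its exon bases.

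The scaffolds were among the steadiest of the 10, with an SD over castrated samples of 0.08 (Eif4g1) and 0.09 (Eif4g3) on the log2 scale. Eif4g1, the main scaffold (chromosome 16, 20668313 to 20692884), had 587, 574, 630 and 641 rescaled CPM in castrated samples, against 604 and 587 in intact samples. A log2 fold change of 0.03 had a 95% interval of -0.22 to 0.28 (limma adjusted p = 0.941). Eif4g3, its paralog (chromosome 4, 137993022 to 138208508), had 127, 128, 143 and 141 in castrated samples, against 134 and 134 in intact samples. For it the log2 fold change was 0.01, with an interval of -0.21 to 0.23 (adjusted p = 0.984). For Eif4g3, castrated samples 1 and 2 lay below both intact samples. For Eif4g1, castrated sample 2 did so and castrated sample 1 was level with the lower intact sample (586.84 against 586.81). In both genes castrated samples 3 and 4 lay above both intact samples. The sign of the small log2 fold changes turned when castrated sample 4 was left out (-3.4e-05 for Eif4g1 and -0.02 for Eif4g3).

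Of the helicase genes, only Eif4a2 had groups that did not overlap. Eif4a1 (chromosome 11, 69666936 to 69672423) had 909, 810, 821 and 705 rescaled CPM in castrated samples, against 868 and 746 in intact samples. Its groups overlapped, with a log2 fold change of 0.01 and a 95% interval of -0.34 to 0.35 (limma adjusted p = 0.992), and the value was -0.11 without intact sample 2, -0.05 without castrated sample 1 and 0.11 without intact sample 1. Eif4a2, the close paralog (chromosome 16, 23107444 to 23114136), had 377, 327, 325 and 302 in castrated samples, against 241 and 278 in intact samples. All 4 castrated samples exceeded both intact samples, with means of 333 ± 31.5 in castrated samples (SD, n = 4) and 259 ± 26.7 in intact samples (SD, n = 2). The log2 fold change of 0.36 had a standard error of 0.12 and an interval of 0.06 to 0.65. Its unadjusted p was 0.0245 in limma, 0.0272 in edgeR and 0.0117 in DESeq2. After adjustment these were 0.218 in limma, 0.230 in edgeR and 0.0974 in DESeq2. Intact sample 1 was the lowest of all 6, and the log2 fold change was 0.25 without it. The genes are close copies, so reads may be shared between them, and an antisense gene, Rfc4, covers 5.47% of the exon bases of Eif4a2.

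Where Eif4e3 and Eif4a2 were higher, 2 sets of other cell markers were higher too. Neutrophil markers (5 of 5 detected, 4 of them called higher) summed to 199 to 352 in castrated samples, against 29.6 and 67.8 in intact samples. Smooth muscle markers (6 of 6 detected, 0 called) summed to 256 to 460 in castrated samples, against 193 and 208 in intact samples. Their part in the levels of Eif4e3 and Eif4a2 was not tested.

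**Figure D3:**
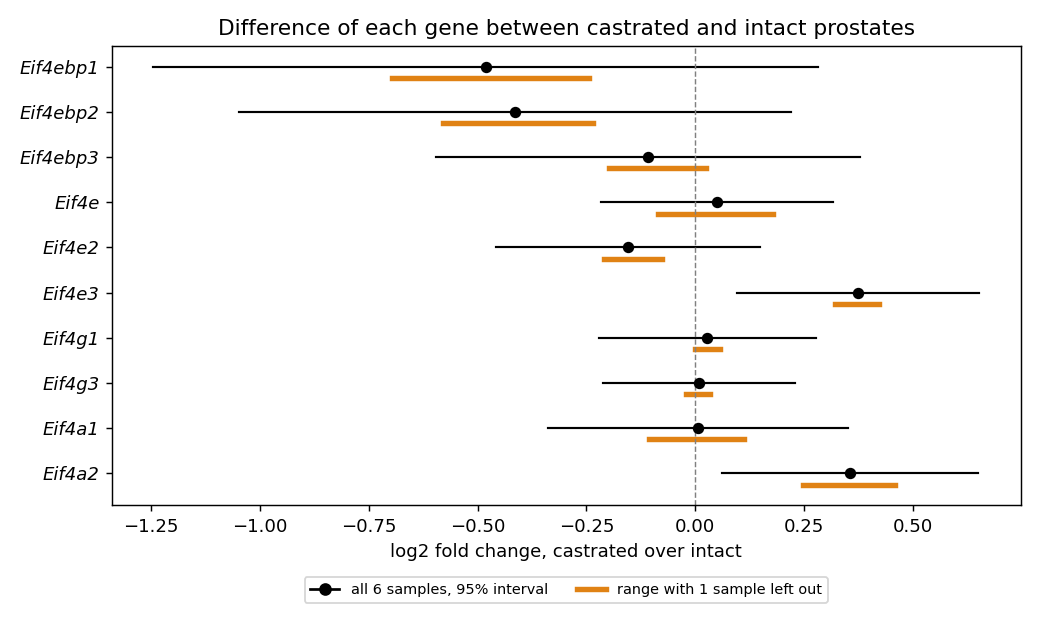
Log2 fold change, castrated over intact (x axis), of each gene with its 95% interval from limma over all 6 samples (black), and the range when 1 sample is left out (orange). The intervals of Eif4e3 and Eif4a2 lie above 0 before adjustment, and those of the other 8 genes include 0.

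Ratios within a sample do not depend on scaling between samples, and 7 were compared by an exact permutation test, two-sided, whose smallest possible p with 4 against 2 samples is 0.133. The ratio of Eif4ebp1 to Eif4e per kilobase was 1.53, 1.38, 1.38 and 0.766 in castrated samples, against 1.88 and 1.68 in intact samples. All castrated samples were lower, with a log2 difference of -0.54 (exact permutation p = 0.133, 0.311 adjusted over the 7 ratios) that became -0.31 without castrated sample 4. The ratio of Eif4a2 to Eif4a1 was 0.230, 0.224, 0.219 and 0.238 in castrated samples, against 0.154 and 0.207 in intact samples. All castrated samples were higher, by 0.35 on the log2 scale (exact permutation p = 0.133, adjusted 0.311), by 0.14 without intact sample 1 and by 0.57 without intact sample 2. The ratio of Eif4e3 to Eif4e was 0.443 to 0.584 in castrated samples and 0.382 and 0.428 in intact samples, a log2 difference of 0.33 with the same p. The other 4 overlapped between groups. The steadiest was Eif4g3 to Eif4g1, at 0.129 to 0.135 in castrated samples and 0.132 and 0.136 in intact samples. For single genes, the groups did not overlap in 26.6% of all genes tested, and no such share was computed for ratios. Eif4e and Eif4a1 had log2 fold changes of 0.05 and 0.01. The ratios of Eif4e3 to Eif4e and of Eif4a2 to Eif4a1 therefore mostly repeat the differences of Eif4e3 and Eif4a2 and are not separate results.

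**Figure D4:**
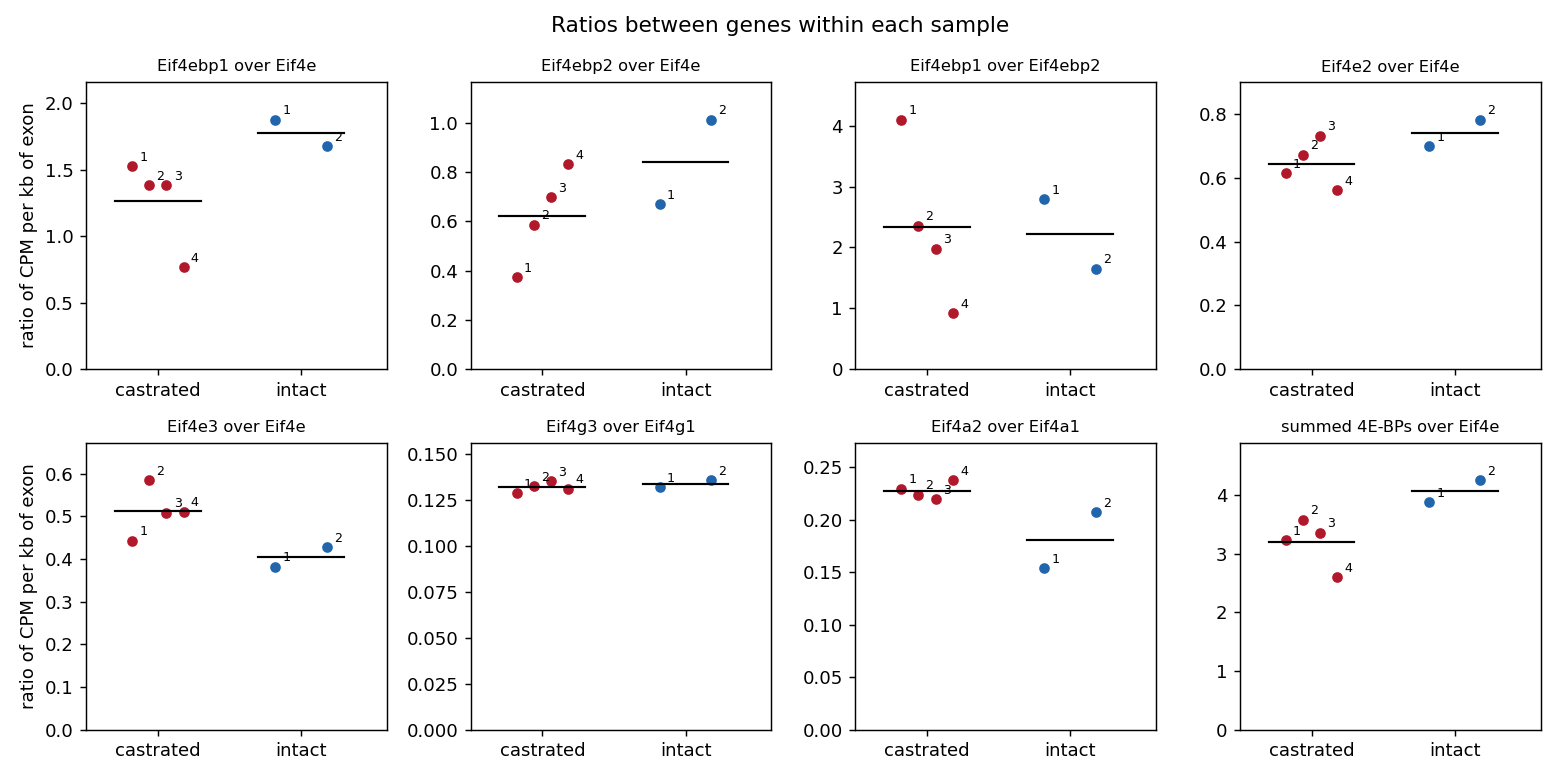
Ratio of rescaled CPM per kilobase of exon (y axis, from 0) between the named genes in castrated (red, n = 4) and intact (blue, n = 2) samples, numbered by replicate, with the mean as a line. Castrated samples lie below intact ones for Eif4ebp1 over Eif4e and for summed 4E-BPs over Eif4e, and above them for Eif4e3 over Eif4e and Eif4a2 over Eif4a1.

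Among the partners and regulators of the complex, 0 of 39 tested genes were called in limma, where 1.97% of all genes were. The lists hold helicase and scaffold partners, eIF4E kinases, poly(A)-binding proteins, other eIF4E- or cap-binding proteins, mTORC1 with the S6 kinases, factors of 4E-BP turnover, and transcription factors known to act on these genes. Their median log2 fold change was 0.08, with 23 positive and 16 negative. By list the median ran from -0.06 for the 2 eIF4E kinases to 0.18 for the 8 transcription factors, and the 5 genes of the poly(A)-binding list were all above 0 (median 0.14). At an unadjusted p under 0.05 there were 5 of 39, no larger a share than the 15.9% of all genes: Deptor, Pdcd4, Pabpc1 and Ncbp2 were positive and Mknk2 was negative. edgeR called 0 (1.46% of all genes), with 5 at an unadjusted p under 0.05 (15.9% of all genes). DESeq2 called 2 (9.31% of all genes), with 7 at an unadjusted p under 0.05 (18.5% of all genes). The groups did not overlap for 12 of 39, of which 10 were higher in castrated samples, where 26.6% and 13.4% of all genes did so. The values of the 5 genes follow as a description.

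Pdcd4, an inhibitor of eIF4A, had 257, 226, 235 and 162 rescaled CPM in castrated samples, against 145 and 158 in intact samples. This log2 fold change of 0.52 had a 95% interval of 0.07 to 0.97 (limma adjusted p = 0.240). Castrated sample 4 lay close to the intact samples, and without it the value was 0.66 (limma adjusted p = 0.0157). That fit without castrated sample 4 called 1052 genes in all, against 274 with all 6 samples. Deptor, an inhibitor of mTOR, had 54.0, 38.8, 58.3 and 33.5 in castrated samples, against 23.4 and 28.03 in intact samples. It differed by 0.80 on the log2 scale, interval 0.22 to 1.38 (limma adjusted p = 0.172, DESeq2 adjusted p = 0.0259), and 0.94 without castrated sample 4 (limma adjusted p = 0.0429). The groups did not overlap for either gene, while those of Akt1s1, another inhibitor of mTORC1, overlapped (log2 fold change -0.06).

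Mknk2, a kinase that phosphorylates eIF4E, had 332, 391, 357 and 353 rescaled CPM in castrated samples, against 427 and 489 in intact samples. All 4 castrated samples were lower, with a log2 fold change of -0.35 and an interval of -0.62 to -0.09 (limma adjusted p = 0.184, DESeq2 adjusted p = 0.0477). Pabpc1, the main cytoplasmic poly(A)-binding protein, had 1309, 1194, 1230.4 and 914 in castrated samples, against 857 and 832 in intact samples. In log2 terms this was 0.45 (limma adjusted p = 0.271). It was 0.56 without castrated sample 4 (limma adjusted p = 0.0328), in the fit that called 1052 genes in all. Ncbp2, the cap-binding subunit of the nuclear complex, was at 58.5 to 67.6 in castrated samples and at 52.1 and 54.9 in intact samples, a log2 fold change of 0.25 (limma adjusted p = 0.279).

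Atf4, an activator of Eif4ebp1 under amino acid stress, was at 199, 199, 196 and 169 rescaled CPM in castrated samples and at 235 and 184 in intact samples. Its log2 fold change was -0.13 (limma adjusted p = 0.715). Myc, known to raise transcription of several eIF4F genes, was at 63.2 to 79.7 in castrated samples and at 52.0 and 73.5 in intact samples, a log2 fold change of 0.19 (limma adjusted p = 0.642).

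**Figure D5:**
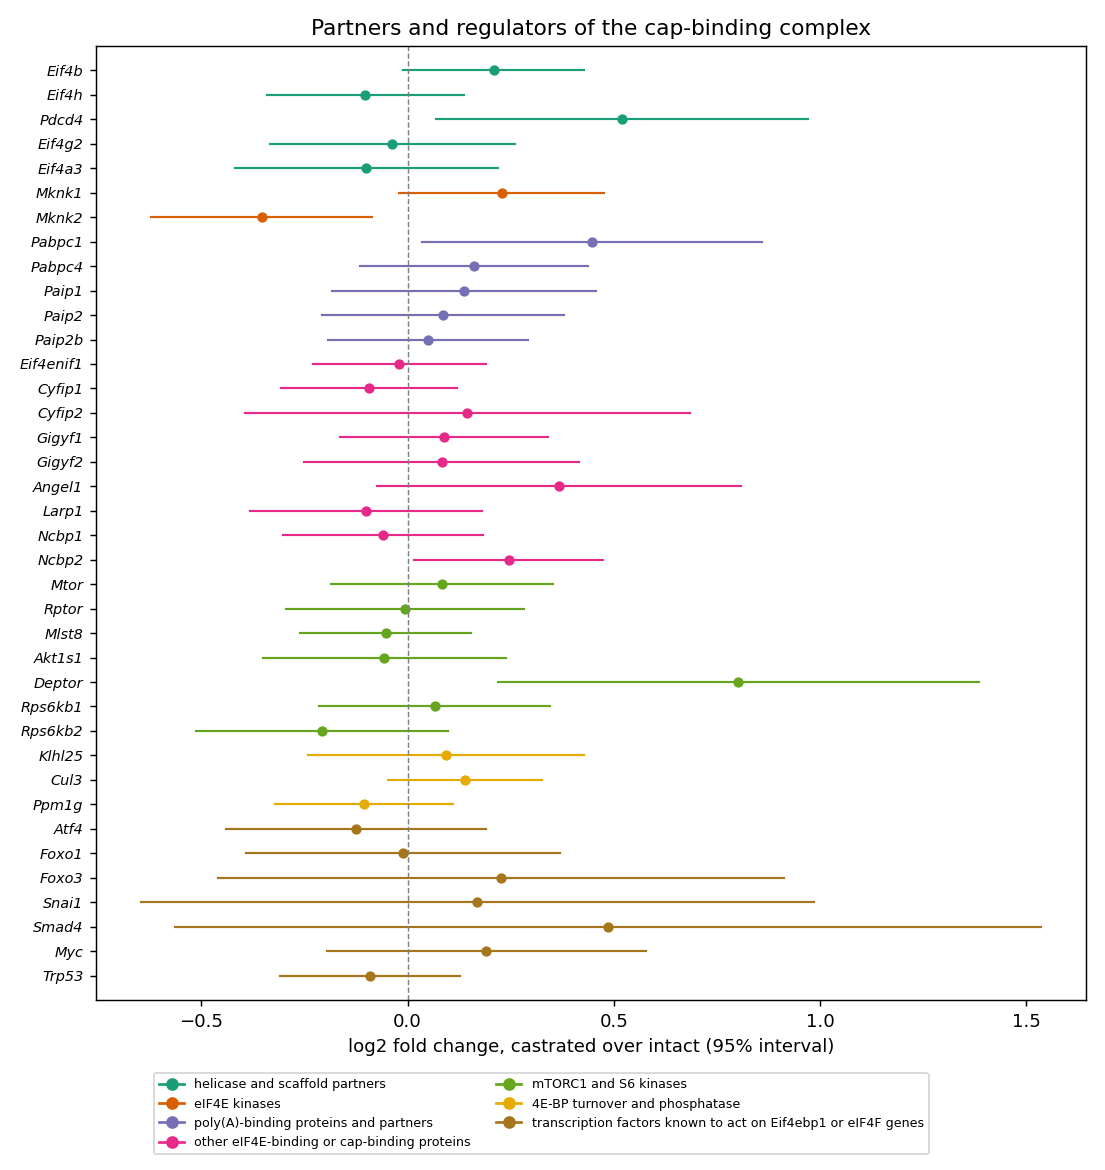
Log2 fold change, castrated over intact (x axis), with 95% intervals from limma for the tested partners and regulators, coloured by list, with 1 gene not shown. Deptor (0.80), Pdcd4 (0.52) and Pabpc1 (0.45) have the intervals that lie farthest above 0, with Ncbp2 just above it, and Mknk2 (-0.35) has the 1 interval below 0.

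The genes nearest to 3 members in their pattern over the 6 samples were taken from 11143 genes with a mean of at least 5 rescaled CPM, by the root-mean-square distance between centred log2 values. For Eif4ebp1 they were Chpt1, an enzyme of phosphatidylcholine synthesis (distance 0.05), Pla2g12a, a secreted phospholipase (0.10), and Klrg2 (0.10), against a spread of Eif4ebp1 itself of 0.44. Chpt1 had 64.6, 47.7, 52.5 and 27.2 rescaled CPM in castrated samples, against 74.5 and 57.4 in intact samples, and shared with Eif4ebp1 the lowest value in castrated sample 4. For Eif4ebp2 (spread 0.36) they were Sh3pxd2a, a scaffold of invasive cell protrusions (0.08), Traf3, a signalling adaptor (0.09), and Akap13, an anchor of protein kinase A (0.10). For Eif4a2 (spread 0.20) they were Sh3glb2 (0.03), Vps41, a subunit of a lysosomal tethering complex (0.04), and Slc18b1, a polyamine transporter of vesicles (0.04). None of these 9 genes was called, at limma adjusted p from 0.215 to 0.592. They were picked to match uncalled members over the same 6 samples. Neither this nor the low value of Chpt1 in castrated sample 4 is therefore a separate result.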

How the data were processed

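RNA was sequenced from 4 castrated and 2 intact samples, grouped by their titles. The authors deposited CPM (reads scaled to a common total per sample), 1 table a sample; the submitters' processing notes name TopHat2, HTSeq, edgeR and mm10, and settings, versions and strand use are not given in the sources used here. Dividing deposited values by the step that 1 read makes gave whole reads for 100% of them in each sample (tolerance 1e-06). Multiply mapped reads could favour or drop paralogs, as their treatment is not given.

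Genes reaching 1 CPM in 2 samples or more were fitted together in limma 3.58.1 (R 4.3.3) with a mean-variance trend, on CPM divided by size factors plus a pseudocount of 0.5, so fold changes of weak genes are understated. edgeR 4.0.16 (quasi-likelihood) and DESeq2 1.42.0 were run on recovered reads, edgeR as the count test, calling 203 genes. Steps were tested on simulated counts with the same spread for every gene and planted changes larger than those of the members here. Recovery of differences as small as the members' was not tested. Levels per kilobase use exons of GENCODE basic coding transcripts (GRCm38), which also gave coordinates and coding sequences. Members, lists and alternatives were chosen with earlier results of these data known. Named were all 10 members, partners that were called or at an unadjusted p under 0.05, Atf4 and Myc, the 3 nearest genes to 3 members, and Fkbp5 and Pbsn as checks of castration and model; other genes of that rule are not reported here. Ncbp3 was not found among the symbols.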

Additional observations from a re-analysis of the deposited data

Results flagged for a closer look

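Among the 4 castrated samples, 26 sets of values were checked for 1 sample far from the other 3 (the gap over the range above Dixon's 95% critical value), and 3 were found, where chance gives about 1 in 20. Eif4e was at 110.1 rescaled CPM in castrated sample 1, with the other 3 at 96.8 to 97.4. Eif4e3 was at 27.8 in castrated sample 2, with the others at 23.9 to 24.3. Atf4 was at 169 in castrated sample 4, with the others at 196 to 199.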

How the results depend on the processing

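No member was called in any of the 18 alternatives, and Eif4ebp1, Eif4ebp2, Eif4e2, Eif4e3 and Eif4a2 kept their direction in all of them. The smallest adjusted p were 0.0511 for Eif4ebp2 with the replicate number as a block, 0.0533 for Eif4e3 in DESeq2 and 0.0829 for Eif4a2 with array weights. Genes with values near 0 changed sign: Eif4ebp3 was 0.0043 with array weights and 0.12 in the replicate block fit; Eif4g3 was -0.010 with array weights and -0.071 in the block fit; Eif4g1 was -0.037 in the block fit; and Eif4a1 was -0.016 with quantile normalization. In the block fit Eif4ebp1 was -0.19 and Eif4ebp2 -0.72. With 1 sample left out, the log2 fold change ran from -0.20 to 0.023 for Eif4ebp3, -0.085 to 0.18 for Eif4e, -3.4e-05 to 0.056 for Eif4g1, -0.021 to 0.034 for Eif4g3 and -0.11 to 0.11 for Eif4a1. The log2 ratio of Eif4ebp1 over Eif4ebp2 ran from -0.45 to 0.32 and that of Eif4g3 over Eif4g1 from -0.040 to 0.00069. Over all genes 274 were called, against 170 with no filter, 954 with array weights, 417 in the block fit, 1293 in DESeq2 and from 1 to 1052 with 1 sample left out: leaving out intact sample 1 gave 9, intact sample 2 gave 1, castrated samples 1, 2 and 3 gave 78, 83 and 46, and castrated sample 4 gave 1052. Of the partners 1 was called with array weights (Pdcd4), 1 in the block fit (Smad4), 2 in DESeq2 (Deptor and Mknk2), and from 0 to 4 with 1 sample left out, the 4 without castrated sample 4 being Deptor, Pabpc1, Pdcd4 and Smad4. The cause of these changes was not tested. The titles give same-numbered samples no link beyond the number. Their deviations from the group means correlated at 0.08 and 0.23. The deviations of 2 intact samples mirror each other, so these values cannot tell whether the samples were paired. With 2 intact samples, leaving 1 out assumes that the other varies like castrated samples. Eif4ebp3 had at least 873 reads and Eif4e3 at least 852 reads in every sample, and the parts of depth and of sample spread in the width of their intervals were not tested.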

Other observations

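Eif4e1b, the oocyte paralog of Eif4e, had 1 read in castrated sample 2 and 0 in the other samples, where a count of 0 allows up to 0.0507 to 0.0687 CPM. Smad4, named after its values were seen because some alternatives called it, had 361, 261, 313 and 117 rescaled CPM in castrated samples, against 196 and 152 in intact samples. Castrated sample 4 was its lowest and the other 3 castrated samples its highest. Its log2 fold change was 0.49 over all samples (limma adjusted p = 0.665), against 0.83 without castrated sample 4 (limma adjusted p = 0.0426). The fit without that sample called 1052 genes in all, against 274 with every sample.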
